A study of Homo sapiens with 2 samples.

Results

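The RNA interference machinery described here is the set of 10 genes whose products turn a hairpin RNA into a loaded silencing complex: DROSHA, DGCR8, XPO5, DICER1, TARBP2, PRKRA, AGO1, AGO2, AGO3 and AGO4. Members were chosen by gene symbol in the platform annotation of the array, and 34 probe sets named exactly 1 of the 10. Of these, 27 named the member alone and give the gene values, for 9 of the 10 members among 19775 genes measured in all. The other 7 probe sets carried a further symbol beside that of the member: all 4 of DGCR8 and 3 of the 4 of AGO2. For AGO2 that symbol is CASC7, which RefSeq now lists as a synonym of AGO2. Their values are given separately.

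The study compared 2 cultures of the human hepatocellular carcinoma line Huh7, an established cell line, on 1 Affymetrix array each. The first culture carried an shRNA against CD24 (knockdown) and the second a non-target control hairpin (NTC), both delivered stably by lentivirus and grown in the same medium. Both arrays therefore come from cells that make a hairpin, and no array of cells without a hairpin was analysed here. How many clones or integrations each culture held is not given in the sources used here.

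Short hairpin RNAs expressed from a lentivirus use the cell's own microRNA route. A microRNA transcript is cut in the nucleus by the Microprocessor, made of the RNase III enzyme DROSHA and its RNA-binding partner DGCR8. Simple short hairpins are usually made ready for export and do not need that cut. XPO5 (exportin-5) carries the hairpin to the cytoplasm together with Ran in its GTP form, DICER1 cuts off the loop with the help of TARBP2 or PRKRA, and an Argonaute protein keeps a single strand as guide. Of the human Argonautes, AGO2 is the main slicer of a fully matched target.

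The bases that these proteins process are shown first, for some of the microRNAs whose host transcripts or regulators are described further on. The microRNA that shares its annotation with DGCR8 is shown too. Capitals mark the seed, bases 2 to 8, which pairs with target transcripts. Sequences are from RefSeq on GRCh38.p14.
hsa-let-7a-5p: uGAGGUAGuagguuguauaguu
hsa-miR-21-5p: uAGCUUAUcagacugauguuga
hsa-miR-210-3p: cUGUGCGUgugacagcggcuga
hsa-miR-33b-5p: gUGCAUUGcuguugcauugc
hsa-miR-1306-5p: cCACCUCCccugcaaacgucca
hsa-miR-1306-3p: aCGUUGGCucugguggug
The copy of let-7a shown lies at chr9:94175962-94175983 on the plus strand, miR-21 at chr17:59841273-59841294 on the plus strand, miR-210 at chr11:568112-568133 on the minus strand and miR-33b at chr17:17813897-17813916 on the minus strand. The pair from MIR1306 lies at chr22:20086072-20086093 and chr22:20086112-20086129, both on the plus strand. None of these 6 sequences shares its seed with another of the 6. The let-7a seed is shared by 11 mature microRNAs of the table, the miR-21 and miR-33b seeds by 2 each, and each of the other seeds is held by 1.

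The deposited table holds log2 values that were centred within each probe set, so the value of a probe set in the CD24 shRNA array is the negative of its value in the NTC array. The quantity given for each gene is the log2 difference, CD24 shRNA minus NTC, averaged over its probe sets. Levels are not in the table, so no member can be called more or less abundant than another. Each group holds 1 array, so nothing here has a test, a p-value or a replicate check, and precision is limited by the number of arrays. As error, the SD among the probe sets of each gene is given. It reflects how well probe sets of a gene match on these arrays and leaves out variation between cultures. Pooled over the 10523 genes with several probe sets, that SD was 0.27. CD24, the target of the hairpin, had a centred mean of -0.68 in the CD24 shRNA array and 0.68 in the NTC array, a difference of -1.37 ± 0.38 (SD, 6 probe sets). All 6 probe sets were lower in the CD24 shRNA array. In bulk RNA, fewer cells of a type and less RNA per cell cannot be told apart.

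No member of the RNA interference machinery differed by 1.5-fold between the arrays, in either direction, against 5.01% of all genes. None reached a log2 difference of 0.32 either, a size that 17.8% of all genes reached, and 2-fold was passed by 1.12% of genes and by no member. With 9 members, a count of 0 lies near the background at each of these sizes. Of the 9 measured members, 4 lay above 0 and 5 below, with a median log2 difference of -0.03, and over all genes the median was 0.00. Gene means ran between -0.31 for AGO2 and 0.20 for AGO4. The AGO2 value rests on 1 of its 4 probe sets, and over all 4 it was 0.02. The median size of a difference, without its sign, was 0.10 over the members and 0.14 over all genes. For 8 of the 9 members the difference was below the pooled SD of 0.27, as were those of 76.0% of all genes. The exception was AGO2, on that 1 probe set. Among the 27 single probe sets, 14 lay above 0, 12 below and 1 was tied, and none passed 1.5-fold, against 7.16% of all probe sets that name 1 gene.

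**Figure D1:**
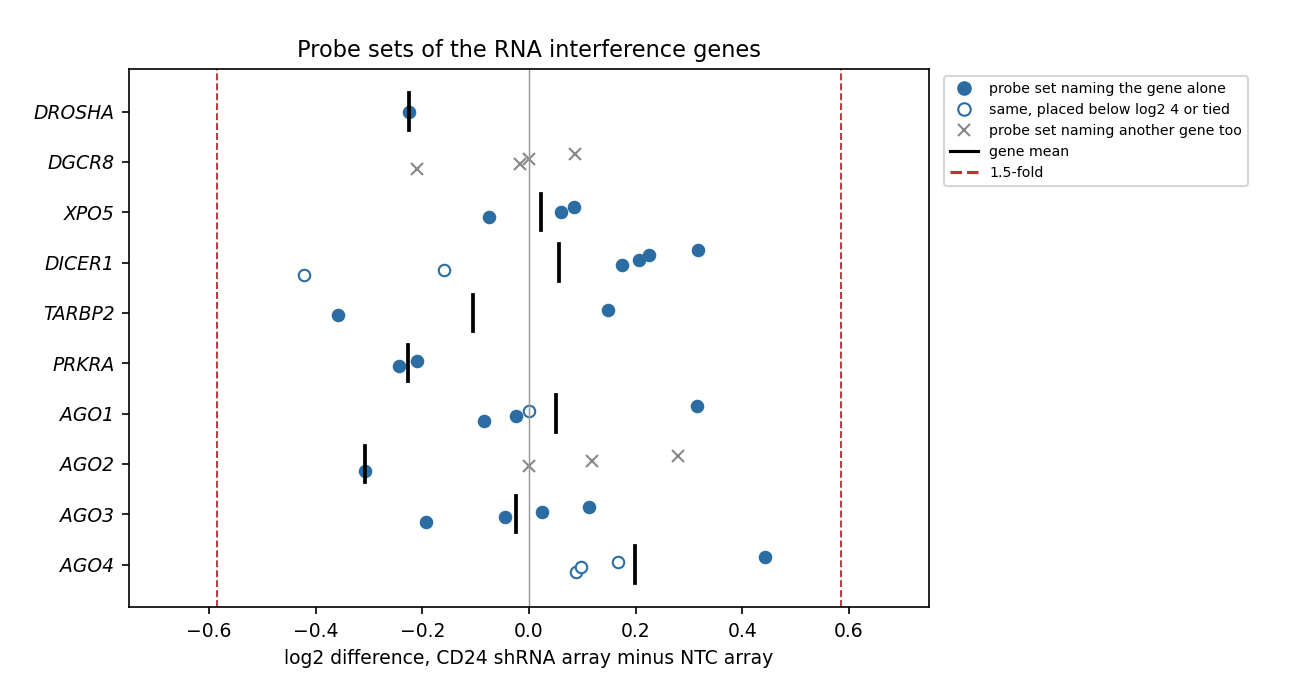
Log2 difference (CD24 shRNA array minus NTC array, horizontal axis) of every probe set that names 1 of the 10 RNA interference genes, with a row per gene. Filled points name the gene alone, and open points are the same but placed below a log2 level of 4 in the dimmer array or tied. Crosses also carry another symbol, black bars are gene means and dashed lines mark 1.5-fold. All points lie between -0.42 and 0.44.

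DROSHA, the nuclear RNase III enzyme that makes the first cut of microRNA transcripts, was measured by a single probe set. Its centred value was -0.11 in the CD24 shRNA array and 0.11 in the NTC array. The difference was -0.23, or 1.17-fold lower in the CD24 shRNA array, which is smaller than the pooled SD, and 15.2% of all genes lay lower. DGCR8, which holds the hairpin for DROSHA, had no probe set of its own. Each of its 4 probe sets also named MIR1306, the microRNA gene whose mature sequences are printed above. Their differences were 0.09, 0.00, -0.02 and -0.21, with a mean of -0.04 ± 0.12 (SD, 4 probe sets). They lay on both sides of 0, and only the lowest was close to the value of DROSHA.

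XPO5, the export receptor, showed the smallest difference of the 9 members. Its centred mean was 0.01 in the CD24 shRNA array and -0.01 in the NTC array. Its 3 probe sets lay at 0.09, 0.06 and -0.08, and their mean was 0.02 ± 0.09 (SD, 3 probe sets). The names of all 3 end in _s_at, which marks probe sets that can match more than 1 transcript, so XPO5 has no value once such probe sets are left out.

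DICER1, the cytoplasmic RNase III enzyme that removes the hairpin loop, had the most probe sets and they disagreed. Its centred mean was 0.03 in the CD24 shRNA array and -0.03 in the NTC array. The difference averaged 0.06 ± 0.29 (SD, 6 probe sets), with 4 probe sets at 0.32, 0.23, 0.21 and 0.18 and the other two at -0.16 and -0.42. The pair below 0 are both placed below 4 on the log2 scale in the dimmer array by the digits of the file, a level near the background of such arrays, and none of the 4 above 0 is. Those 4 had a mean of 0.23 ± 0.06 (SD, 4 probe sets). Dim probe sets are found only in part by this means, so some of the 4 may be dim as well.

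The double-stranded RNA-binding partners of DICER1 are TARBP2 and PRKRA, which help to pass the cut duplex to an Argonaute. TARBP2 had a centred mean of -0.05 in the CD24 shRNA array and 0.05 in the NTC array. Its probe sets lay on opposite sides, at 0.15 and -0.36, for a mean of -0.10 ± 0.36 (SD, 2 probe sets). The SD was larger than the difference, so the direction of TARBP2 is not settled by these probe sets. PRKRA, also an activator of the double-stranded RNA-dependent kinase, was the member whose probe sets agreed most closely. Its centred mean was -0.11 in the CD24 shRNA array and 0.11 in the NTC array, and its probe sets lay at -0.21 and -0.24. The mean of -0.23 ± 0.02 (SD, 2 probe sets) is 1.17-fold lower in the CD24 shRNA array, and 69.3% of all genes had a smaller difference in either direction.

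The 4 Argonautes lay on both sides of 0, with 2 above and 2 below. AGO4, AGO1 and AGO3 are neighbouring protein-coding genes on chromosome 1 in the RefSeq annotation, in that order, and AGO2 is on another chromosome. AGO4 had a centred mean of 0.10 in the CD24 shRNA array and -0.10 in the NTC array, and all 4 of its probe sets lay above 0, at 0.44, 0.17, 0.10 and 0.09. The mean was 0.20 ± 0.17 (SD, 4 probe sets), or 1.15-fold higher in the CD24 shRNA array, and 81.5% of all genes lay lower. The 3 lower of these probe sets are placed below 4, and the value of AGO4 outside them rests on the highest probe set alone.

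AGO1 lay close to 0. Its centred mean was 0.03 in the CD24 shRNA array and -0.03 in the NTC array, and its probe sets lay at 0.32, 0.00, -0.02 and -0.08, a mean of 0.05 ± 0.18 (SD, 4 probe sets). A single probe set puts AGO1 above 0, and the median of the 4 was -0.01. AGO3 had a centred mean of -0.01 in the CD24 shRNA array and 0.01 in the NTC array, with probe sets at 0.11, 0.02, -0.04 and -0.19 and a mean of -0.03 ± 0.13 (SD, 4 probe sets). In this order of the neighbours the differences were 0.20, 0.05 and -0.03, and successive values differ by less than the SDs over their probe sets.

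AGO2, the slicing Argonaute, had the largest difference of the 9 members, and its direction depends on which probe sets are read. The probe set that names AGO2 alone had a centred value of -0.15 in the CD24 shRNA array and 0.15 in the NTC array. That is a difference of -0.31, or 1.24-fold lower, and 9.40% of all genes lay lower. The other 3 probe sets are annotated with AGO2 and CASC7, and RefSeq now lists CASC7 as a synonym of AGO2. Their differences were 0.28, 0.12 and 0.00. Over all 4 the mean was 0.02 ± 0.25 (SD, 4 probe sets). AGO2 is thus the lowest member on its own probe set and level between the arrays when the probe sets of its synonym are added.

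**Figure D2:**
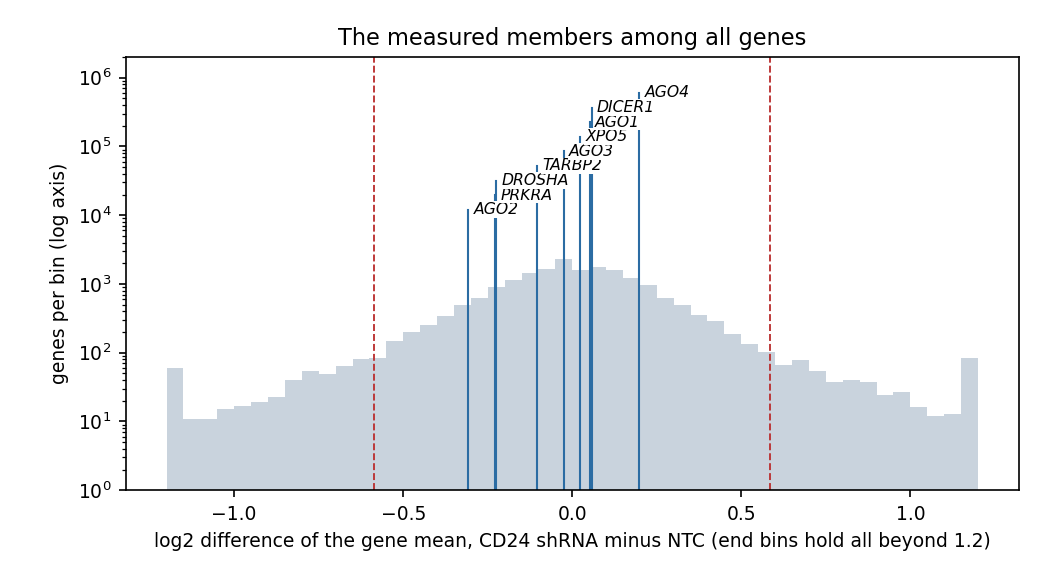
Histogram of the log2 difference of the gene mean (CD24 shRNA minus NTC, horizontal axis) over 19775 genes, on a log axis of genes per bin, with vertical lines at the 9 measured members. Line height only spaces the names. The members lie between -0.31 and 0.20, inside the dashed 1.5-fold lines that 5.01% of genes pass.

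Probe sets of a member often disagreed, as they did for genes at large. Of the 7 members with several probe sets, 2 (PRKRA and AGO4) had all of them on the same side of 0, or 28.6%, against 39.9% of the 10523 such genes. The median SD over probe sets was 0.17 for these 7 members and 0.18 over all such genes. Of the 27 member probe sets, 5 were placed below 4 in the dimmer array, or 18.5%, against 25.7% of all probe sets that name 1 gene. These 5 were 3 of AGO4 and 2 of DICER1.

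**Figure D3:**
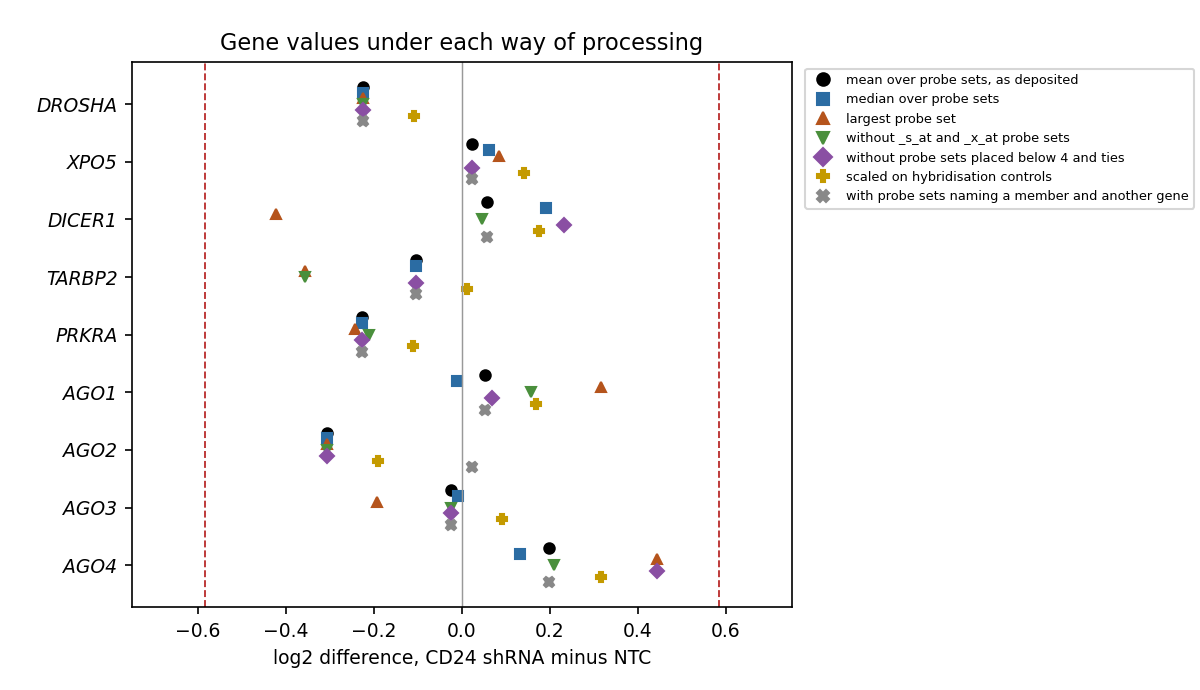
Log2 difference of each measured member (CD24 shRNA minus NTC, horizontal axis) under 7 ways of processing, marked by symbol, with dashed lines at 1.5-fold. No symbol passes 1.5-fold, and DROSHA, PRKRA and AGO4 stay on the same side of 0 under every setting shown, as does XPO5 under those that give it a value.

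The rest of the small RNA pathway was read from 9 further lists. The lists were chosen with earlier results of these arrays known, and their members are counted as a description with no test. Across all genes, 2.63% passed 1.5-fold on the higher side in the CD24 shRNA array and 2.38% on the lower side, and 49.4% lay above 0. No list median lay farther from 0 than 0.09. The whole-array comparison fixes no zero of its own: scaled on the hybridisation controls, the median of all genes shifts by 0.12, so directions here are relative to that median.

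Cofactors of the Microprocessor and of the nuclear cap had 6 of 17 measured genes above 0 and 11 below, none past 1.5-fold, with a median of -0.05. The 3 largest differences included the DEAD-box helicases that bind DROSHA. DDX5 lay at -0.44 (1 probe set) and its relative DDX17 at -0.36 ± 0.43 (SD, 5 probe sets). HNRNPA1, an RNA-binding protein that aids the cutting of some microRNA hairpins, also lay at -0.36, ± 0.27 (SD, 3 probe sets). For DDX17 the SD over probe sets exceeded the difference, though all 5 lay below 0, between -1.08 and -0.01. Of these 5, 1 was placed below 4.

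Genes of the Ran cycle, which powers export by XPO5, had 4 of 7 measured genes above 0 and none past 1.5-fold, with a median of 0.02. RANGAP1, the activator of Ran's GTPase in the cytoplasm, had the largest difference, 0.47 ± 0.11 (SD, 3 probe sets), with all its probe sets above 0. XPOT, the exportin of transfer RNA, lay at -0.36 ± 0.09 (SD, 2 probe sets) and RCC1, the Ran exchange factor, at -0.10 ± 0.08 (SD, 2 probe sets). RAN itself lay at -0.05 ± 0.09 (SD, 2 probe sets) and was named after its value was seen.

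The chaperones that open an Argonaute for loading had 5 of 10 measured genes on each side of 0, none past 1.5-fold, with a median of 0.01. HSP90AB1, a constitutive HSP90, lay at -0.44 ± 0.31 (SD, 3 probe sets). FKBP5, an HSP90 co-chaperone, lay at -0.34 ± 0.28 (SD, 3 probe sets, 1 placed below 4). DNAJB1, a J-domain protein, lay at 0.42 ± 0.09 (SD, 2 probe sets). Members of the list thus lay on both sides by similar amounts.

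Partners of the loaded complex had 11 of 21 measured genes above 0, with 2 at least 1.5-fold higher, none 1.5-fold lower and a median of 0.02. Those 2 were WTIP, a LIM protein, at 0.71 (1 probe set), and EIF4E2, a cap-binding protein that represses translation, at 0.71 ± 0.19 (SD, 4 probe sets). EIF4E2 was 1.64-fold higher in the CD24 shRNA array, and its probe sets all lay between 0.55 and 0.93. TNRC6B, a GW182 protein that links Argonautes to deadenylases, lay on the other side at -0.43 ± 0.30 (SD, 7 probe sets), with all 7 probe sets below 0. Its relatives TNRC6A and TNRC6C were named after their values were seen. TNRC6A lay at -0.13 ± 0.15 (SD, 6 probe sets, 1 placed below 4). TNRC6C lay at -0.01 ± 0.26 (SD, 7 probe sets, 4 placed below 4).

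The deadenylases and decapping factors that act after GW182 had 15 of 27 measured genes above 0 and none past 1.5-fold, with a median of 0.02. DCP2, the decapping enzyme, had the largest difference, 0.57 ± 0.47 (SD, 4 probe sets, 1 placed below 4). Its probe sets ran between -0.05 and 1.07. CNOT8, a deadenylase subunit, lay at -0.52 ± 0.30 (SD, 3 probe sets) and TOB1, an adaptor of the deadenylase complex, at -0.39 ± 0.13 (SD, 2 probe sets).

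Of the genes that tail, trim or degrade small RNAs, 10 of 17 lay above 0, 1 was tied, 1 was at least 1.5-fold higher and none 1.5-fold lower, with a median of 0.09. That 1 gene was LIN28B, an RNA-binding protein that blocks the maturation of let-7 and an oncofetal gene of the liver. Its single probe set had a centred value of 0.36 in the CD24 shRNA array and -0.36 in the NTC array, a difference of 0.73, or 1.66-fold higher. TUT4, a uridylyl transferase that LIN28A recruits to let-7 precursors, lay at -0.45 ± 0.06 (SD, 2 probe sets), with both probe sets below 0. ERI1, a 3′ exonuclease, lay at 0.36 ± 0.13 (SD, 2 probe sets).

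Further genes of the let-7 route, named after their values were seen, were small or divided. TUT7, the relative of TUT4, lay at 0.13 ± 0.32 (SD, 5 probe sets, 1 placed below 4). DIS3L2, which degrades uridylated let-7 precursors, lay at -0.21 ± 0.36 (SD, 4 probe sets). LIN28A was tied on its single probe set. The let-7a-1 precursor is shown because LIN28 proteins are known to recognise the letters GGAG in let-7 precursors, in capitals here. It lies at chr9:94175957-94176036 on the plus strand of GRCh38.p14.
let-7a-1 hairpin: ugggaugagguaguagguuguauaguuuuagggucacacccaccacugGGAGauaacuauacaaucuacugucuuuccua
The letters GGAG, read on the transcribed strand, occur in 9 of 11 let-7 hairpins of the table, or 81.8%, and in 43.4% of all 1560 hairpins there. A match describes the letters only, and no let-7 level was measured on these arrays.

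Genes of the PIWI pathway, the germline branch of small RNA silencing, had 8 of 15 measured genes above 0 and 1 tied, with a median of 0.02. TDRD12, a Tudor-domain helicase, was the list's 1 gene past 1.5-fold, at -0.69 (1 probe set, placed below 4). TDRD9 lay at 0.44 (1 probe set, placed below 4) and DDX4, the germ cell helicase, at -0.44 (1 probe set).

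Long double-stranded RNA can set off an interferon response, so sensors and interferon-stimulated genes were listed too. Of 31 measured, 12 lay above 0 and 19 below, 1 passed 1.5-fold above and 2 below, and the median was -0.05. IFIT5, an RNA-binding interferon-induced protein, lay at -0.87 ± 0.26 (SD, 2 probe sets, 1 placed below 4), and CXCL10, an interferon-induced chemokine, at -0.79 (1 probe set). ISG15, a ubiquitin-like modifier, lay at 0.60 (1 probe set). Among the sensors, RIGI lay at 0.25 ± 0.09, IFIH1 at 0.08 ± 0.02 and EIF2AK2, the kinase that PRKRA activates, at -0.21 ± 0.18 (SD, 3 probe sets each). DHX58 lay at -0.35 (1 probe set) and TLR3 at -0.09 ± 0.26 (SD, 3 probe sets, 2 placed below 4). These sensors lay on both sides of 0 and none of them passed 1.5-fold. All of these sensors were named after their values were seen.

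Host transcripts of microRNAs, the raw material of the Microprocessor, had 12 of 26 measured genes above 0 and 14 below, with 1 past 1.5-fold on each side and a median of -0.04. VMP1, an autophagy membrane protein gene whose 3′ end holds miR-21, lay at 1.33 on the probe set that names it alone, or 2.52-fold higher in the CD24 shRNA array. A further 3 probe sets name VMP1 together with MIR21, and they lay at 0.79, 0.38 and 0.36, the last placed below 4. All 4 were thus higher in the CD24 shRNA array but by different amounts. MIR210HG, the host of miR-210, lay at -0.62 ± 0.13 (SD, 2 probe sets), or 1.54-fold lower, with both probe sets below 0. SREBF1, whose intron holds miR-33b, lay at -0.45 ± 0.06 (SD, 2 probe sets). Probe sets that name a host together with another symbol are outside the counts of this list. Among these, a probe set of MIR22HG and MIR22 lay at 0.93, or 1.91-fold higher in the CD24 shRNA array. MIR22HG was named after its value was seen. Mature microRNAs were not measured by these probe sets.

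**Figure D4:**
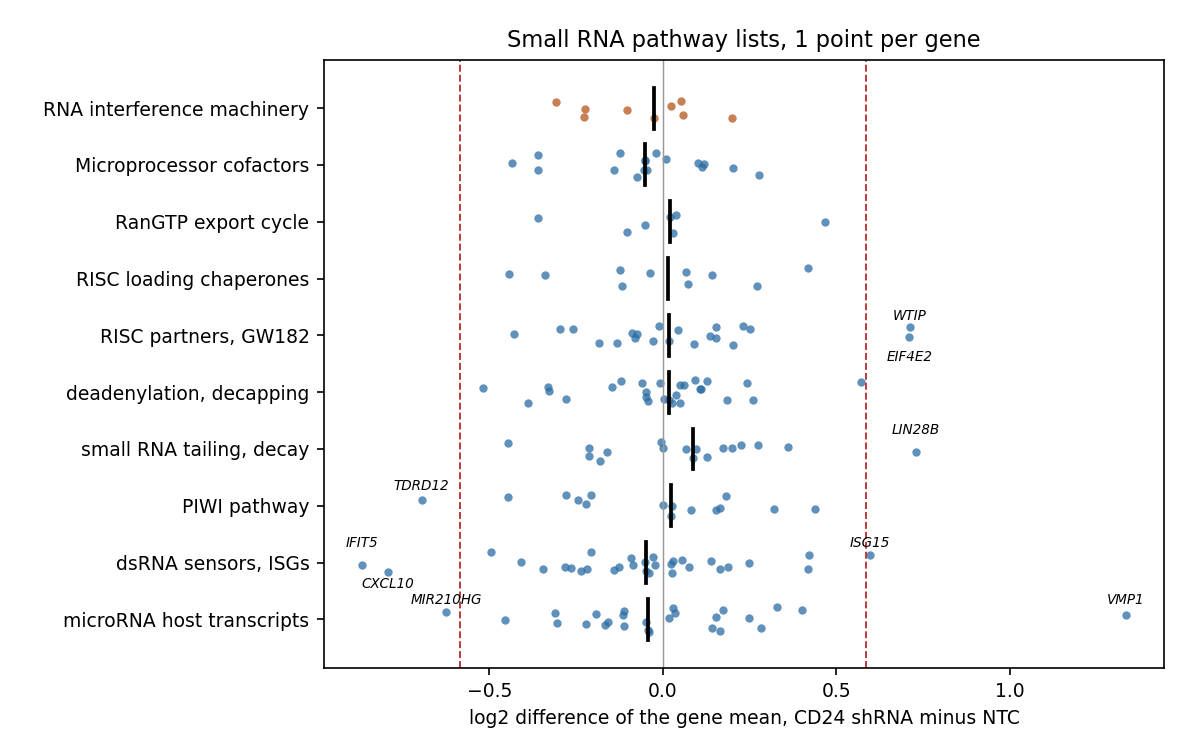
Log2 difference of the gene mean (CD24 shRNA minus NTC, horizontal axis) for the 9 measured RNA interference genes (top row, orange) and 9 further small RNA lists (blue), with 1 point per gene, black bars at list medians and dashed lines at 1.5-fold. Every median lies between -0.05 and 0.09, and the genes past 1.5-fold are named.

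The labelled cell line was checked against marker lists through the dim class, since levels are not in the table. Of 33 probe sets of hepatocyte and hepatoma markers, 1 was placed below 4 in the dimmer array, against 13 of 29 for fibroblast and stellate cells, 5 of 11 for endothelial cells and 3 of 8 for leukocytes. These are 3.03%, 44.8%, 45.5% and 37.5%, beside 25.7% of all probe sets that name 1 gene. Dim probe sets are found only in part by this means, so markers not placed below 4 may be dim as well. Hepatocyte markers had a median of -0.10 over 14 genes, with AHSG at -0.94, APOC3 at -0.67 and FGB at 0.59. Fibroblast and stellate markers had a median of 0.16 over 8 genes, led by COL3A1 at 2.35 ± 1.77 (SD, 5 probe sets), LUM at 1.12 ± 1.41 (SD, 2 probe sets) and ACTA2 at 0.40 ± 0.52 (SD, 3 probe sets). Of the 10 probe sets of these genes together, 8 were placed below 4 in the dimmer array. That array was NTC, since all 10 were higher in the CD24 shRNA array, by up to 3.78 for COL3A1. Their level in the CD24 shRNA array is not given by this. Endothelial markers had a median of -0.05 over 5 genes, with CDH5 at -0.24, KDR at -0.20 and TEK at 0.07, and leukocyte markers a median of -0.05 over 4, with CD14 at -0.37, CSF1R at -0.18 and PTPRC at 0.17. Their part in the values of the RNA interference genes was not tested.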

How the data were processed

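Total RNA of 2 cultures was hybridised to 1 array each. The deposited values are log2 values that the authors made with RMA, as the submitters' processing notes state. RMA corrects background, applies quantile normalisation and summarises the probes of a probe set. Which software was used and what followed RMA is not given in the sources used here. On each probe set the authors' columns sum to 0 within 1e-06, so the table holds differences and no levels.

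Of 54675 probe sets, 62 controls were left out, and of the rest 41091 named 1 gene symbol in GEO's platform annotation, 1801 several and 11721 none here. RefSeq (GRCh38.p14) held the Entrez ID of 41037 and changed 0 symbols. Probe set differences, CD24 shRNA minus NTC, were averaged for each gene. A gene was counted at 1.5-fold, with a larger and a smaller fold as alternatives. The values derive from single-precision numbers, and those under 4 have finer binary steps. Such finer steps placed 15644 probe sets below 4 in the dimmer array, and 3273 were tied. The calculation was tested on simulated data whose planted changes were larger than any difference of a member. That test does not bear on differences as small as those of the members.

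The members and lists were chosen with earlier results of these data known. Every member, CD24 and the 3 largest differences of each list were named by rule, and others are marked as named after their values were seen. Alternatives were the median or the largest probe set of a gene, dropping probe sets that end in _s_at or _x_at, and dropping those placed below 4 or tied. Further ones were scaling on 14 hybridisation controls, adding probe sets that name a member with another symbol, and means over genes. Python 3.11.15, numpy 2.4.6 and pandas 2.3.3 were used.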

Additional observations from a re-analysis of the deposited data

How the results depend on the processing

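Each group holds 1 array, so leaving out an array was not possible, and culture and hairpin cannot be told apart. No paired analysis was possible because each group holds 1 array and the labels give no replicate numbers. The count of members past 1.5-fold was 0 in each direction under all 6 ways of forming or scaling gene values, and 0 with the larger and the smaller fold. The share of all genes past 1.5-fold, 5.01% in the main setting, changed with these ways. It was 11.3% with the largest probe set, 6.67% without probe sets placed below 4 or tied, and 5.75% with the scaling. With the median over probe sets it was 5.12%, and it was slightly lower than in the main setting without probe sets ending in _s_at or _x_at. With so few members, the repeated count of 0 is a weak measure of stability. Of the 123 alternative values of genes and lists, 93 moved by less than their spread (for a gene the SD over probe sets, or 0.27 where it has 1, and for a list 0.27 over the root of its number of genes) and 30 moved further. The cause was not tested for any of them, except that scaling adds 0.12 to every difference. Some of the 93 values could not move, so that number overstates stability. Adding probe sets with a further symbol changes AGO2 alone among the measured members. Only probe sets that name a member were added, so the medians of the further lists could not change under this setting. DROSHA, with 1 probe set, has the same value under every setting but the scaling. DROSHA, PRKRA and AGO4 kept their sign under all 6, XPO5 under the 5 that give it a value, and DICER1, TARBP2, AGO1, AGO2 and AGO3 under 5 of 6. DROSHA has 1 probe set, and those of PRKRA and of AGO4 all lie on the same side of 0. No setting other than the scaling could change the sign of these genes, so their kept sign is no measure of stability.

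With the largest probe set of each gene, DICER1 lay at -0.42, AGO1 at 0.32, AGO3 at -0.19, AGO4 at 0.44 and the median of the members at -0.23. The list medians were then -0.20 for Microprocessor cofactors, 0.12 for the Ran cycle, 0.11 for deadenylation and decapping, 0.20 for small RNA tailing and decay and -0.12 for microRNA hosts. Without probe sets placed below 4 or tied, AGO4 lay at 0.44 on 1 probe set and the PIWI median at -0.10 over 6 genes. Without probe sets ending in _s_at or _x_at, the members' median was -0.12 over 8 genes and that of loading chaperones -0.31 over 7. With probe sets that also carry another symbol, AGO2 lay at 0.023. Scaled on the hybridisation controls, XPO5 lay at 0.14, PRKRA at -0.11, TARBP2 at 0.01, AGO3 at 0.09 and the members' median at 0.092. The list medians were then 0.066 for Microprocessor cofactors, 0.14 for the Ran cycle, 0.13 for loading chaperones, 0.14 for complex partners, 0.13 for deadenylation and decapping, 0.20 for tailing and decay, 0.14 for PIWI genes, 0.067 for interferon genes and 0.075 for microRNA hosts. The mean over genes was -0.047 for PIWI genes and 0.016 for microRNA hosts, whose list median lay at 0.023 with the median over probe sets.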
